A study of Mus musculus with 6 samples.

Results

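The genes described here drive the passage of a cell out of G1 and into S phase. They are the D-type cyclins Ccnd1 and Ccnd3 with their kinases Cdk4 and Cdk6, the E-type cyclins Ccne1 and Ccne2 with their kinase Cdk2, the transcription factor E2f1, and the pocket proteins Rb1 and Rbl1 (p107). These 10 genes were chosen by name, and all 10 of them, of 18193 genes measured, had at least 1 probe set annotated to that gene alone. A probe set is a group of short oligonucleotides that together report 1 transcript. For each gene the probe set with the highest mean log2 signal over all 6 arrays was taken as the main one, and the 16 others were used as a check.

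In a resting cell the pocket proteins bind E2F factors and keep their target genes silent. Mitogens raise the D-type cyclins, which activate CDK4 and CDK6 and start the phosphorylation of the pocket proteins. Cyclin E with CDK2 completes it, and the E2F factors that are set free switch on the genes of DNA replication, along with E2f1, Ccne1 and Rbl1 themselves. In the stratified epithelium that covers the tongue, dividing cells are found mainly in the basal layers, and cyclin D1 is a gene often amplified in human oral cancer.

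Gene expression was compared between 3 tongues of adult C57BL/6J mice, an inbred strain, that drank 4-nitroquinoline 1-oxide (4NQO) for 8 weeks at 100 μg/ml, and 3 tongues of non-treated adult mice of the same strain. 4NQO is a carcinogen that forms DNA adducts and is used to model oral cancer. No transgene or mutation is named for either group, and each array held RNA from 1 tongue. The whole tongue was extracted, so each value averages over its covering epithelium, its muscle, the stroma with blood vessels, leukocytes and small glands. A change in the number of cells of a type and a change in RNA per cell cannot be told apart in such samples.

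The deposited values are log2 signals, so a difference of 1 stands for a 2-fold change. The median over all probe sets was 4.45 to 4.55 on the 4NQO arrays and 4.57 to 4.60 on the control arrays, and it serves below as a mark for dim signals. The control probe sets of Gapdh, placed at both ends of that transcript, gave a 3′ minus 5′ log2 difference of 1.07 in 4NQO tongue 2 and 1.67 in control tongue 3, against 0.086 to 0.47 on the other 4 arrays. The labelled tissue was checked by its markers. All 9 measured keratinocyte markers and all 10 muscle markers lay above the array median on every array. So did 11184 of all 18193 genes, so this mark says little about the tissue. With 3 tongues per group, an exact two-sided permutation test cannot give a p below 0.1.

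All 10 genes had a higher mean signal in 4NQO-treated tongue than in control tongue, as did 8679 of all 18193 genes. None of the 10 genes passed limma's test over all genes at an adjusted p under 0.05. In 6 of them (Ccnd1, Cdk4, Ccne1, Ccne2, E2f1 and Rbl1) every 4NQO-treated tongue lay above every control tongue. Among all genes tested, 9.59% had groups that did not overlap with 4NQO higher and 7.18% with 4NQO lower. The same 6 genes were higher at an unadjusted p under 0.05 in limma, which held for 6.68% of all genes, whereas the adjusted p was under 0.05 with 4NQO higher for 0.126% of all genes and lower for 0.0055%. SAM, the permutation method that the study used, called none of the 10 main probe sets. Over the main probe sets of all 18193 genes it called 45 higher and 0 lower. The median log2 difference of the 10 genes was 0.52, against -0.01 over all genes. The other 4 genes (Ccnd3, Cdk6, Cdk2 and Rb1) overlapped between the groups.

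**Figure D1:**
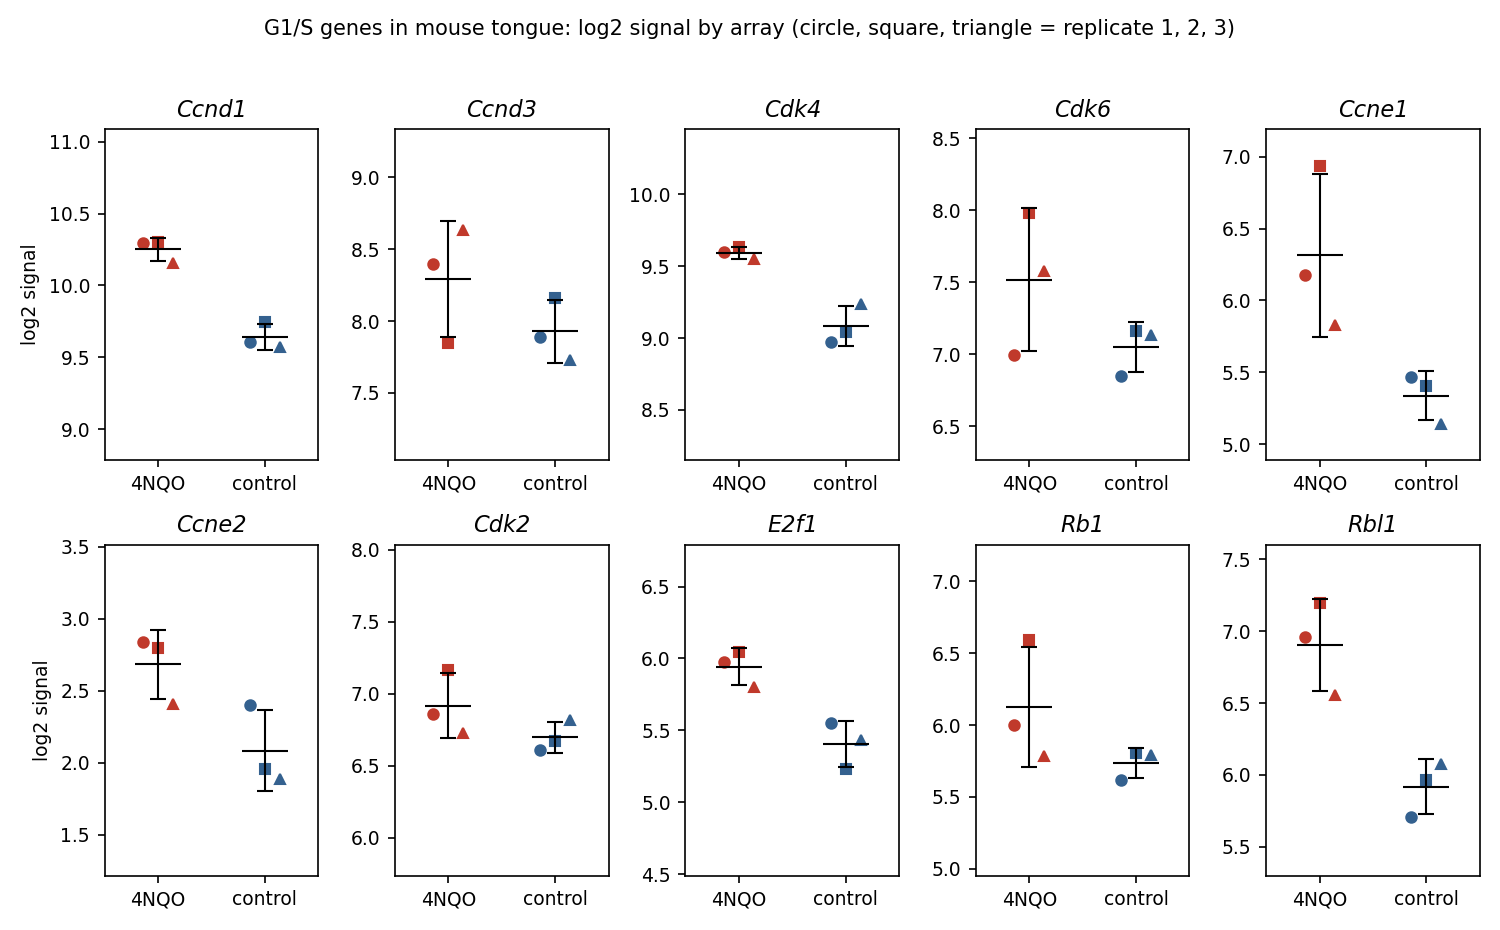
Log2 signal of each of the 10 genes (y axis, the same span of log2 units in every panel) in 3 4NQO-treated and 3 control tongues (x axis), with 1 symbol per array, a bar for the group mean and error bars for SD. The 4NQO-treated tongues lie above all control tongues in the panels of Ccnd1, Cdk4, Ccne1, Ccne2, E2f1 and Rbl1, and overlap them in the other 4.

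Ccnd1 encodes cyclin D1, the D-type cyclin best known in squamous epithelium. Its log2 signal was 10.30, 10.30 and 10.16 in 4NQO-treated tongues 1 to 3, against 9.61, 9.75 and 9.57 in control tongues 1 to 3. The lowest 4NQO-treated tongue stood 0.41 above the highest control tongue, and the spread within each group was small, with an SD of 0.082 in 4NQO-treated tongue and 0.093 in control tongue (n = 3 each). The mean difference was 0.61 (95% interval 0.34 to 0.88), or 1.53-fold, with the smallest limma p of the 10 genes (adjusted p = 0.115). A second probe set of Ccnd1, 1417420_at, gave a log2 difference of 0.85, again without overlap. The third, 1417419_at, had signals of 8.19, 6.65 and 7.48 in 4NQO-treated tongue and 7.50, 7.82 and 5.51 in control tongue. Its lowest value in each group came from the array with the largest Gapdh 3′ minus 5′ difference of that group, 4NQO tongue 2 and control tongue 3, and their part in its wide spread was not tested.

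Ccnd3 encodes cyclin D3, which serves the same kinases. It had signals of 8.39, 7.85 and 8.64 in 4NQO-treated tongue and 7.89, 8.16 and 7.73 in control tongue. 4NQO-treated tongue 2 lay below the highest control tongue, and the log2 difference of 0.36 had a 95% interval from -0.15 to 0.88 (limma adjusted p = 0.612). Both of its dimmer probe sets lay near or under the array median, with differences of -0.35 and 0.15. The remaining D-type cyclin, Ccnd2, which is no member of the group, averaged 10.67 ± 0.23 in 4NQO-treated tongue and 10.41 ± 0.28 in control tongue (SD, n = 3 each), and its groups overlapped.

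Cdk4, the kinase partner of the D-type cyclins, gave the most uniform values of the 10 genes among 4NQO-treated tongues, with an SD of 0.042 (n = 3). It had log2 signals of 9.60, 9.63 and 9.55 in 4NQO-treated tongue, against 8.97, 9.04 and 9.24 in control tongue. Groups were apart by 0.32, and the mean difference was 0.51 (95% interval 0.22 to 0.80), or 1.43-fold (limma adjusted p = 0.208). Its other probe sets gave nearly the same size, 0.56 for 1422439_a_at and 0.53 for 1422440_at, both without overlap. Cdk6, the related kinase, had 6.99, 7.98 and 7.58 in 4NQO-treated tongue and 6.85, 7.16 and 7.13 in control tongue. 4NQO-treated tongue 1 lay inside the control range, and the difference of 0.47 had an interval from -0.11 to 1.05 (limma adjusted p = 0.561). The second bright probe set of Cdk6, 1435338_at, gave 0.48 and did not overlap, and the third lay under the array median on all arrays with -0.27. The difference between the changes of Cdk4 and Cdk6 was not tested.

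Promoter sequences of 7 of the 10 genes were found in the RefSeq table of build GRCm38.p6, as 8 windows, and Ccnd1, Ccne2 and Rb1 had no entry. The 250 bases before each gene start were searched on both strands for the E-box CACGTG, a motif that MYC and related factors bind. Of 32851 such windows over all genes, 6.02% held at least 1 E-box and 0.0213% at least 4. The window of Cdk4 held 4, starting 172, 118, 98 and 11 bases before the gene start, and that of Cdk6 held 1. The Cdk4 window is shown because Cdk4 is a kinase with groups that did not overlap and its E-boxes are so many. It lies at chr10:127063285-127063534 on the plus strand, and capitals mark the E-boxes.
Cdk4: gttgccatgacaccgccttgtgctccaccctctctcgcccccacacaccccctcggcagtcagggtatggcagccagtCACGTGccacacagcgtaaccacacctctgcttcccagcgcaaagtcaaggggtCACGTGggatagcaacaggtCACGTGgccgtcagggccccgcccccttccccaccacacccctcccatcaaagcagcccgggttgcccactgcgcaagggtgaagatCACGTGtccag
A match of these letters is a description of the window, and binding was not measured here. Myc itself had log2 signals of 7.93, 8.06 and 7.58 in 4NQO-treated tongue and 7.19, 7.31 and 7.64 in control tongue, with 1 overlapping pair of tongues and a limma adjusted p of 0.436.

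Ccne1 encodes cyclin E1, the cyclin that activates CDK2 late in G1. It had signals of 6.18, 6.94 and 5.83 in 4NQO-treated tongue, against 5.47, 5.40 and 5.14 in control tongue. The mean was 6.31 ± 0.57 in 4NQO-treated tongue and 5.34 ± 0.17 in control tongue (SD, n = 3 each), a log2 difference of 0.98 (95% interval 0.33 to 1.62), or 1.97-fold (limma adjusted p = 0.280). This main probe set, 1441910_x_at, is, like that of Cdk4, of the type in which some oligonucleotides may match other sequences too. The other probe set, 1416492_at, had 6.01, 5.58 and 5.88 in 4NQO-treated tongue and 5.13, 4.79 and 4.68 in control tongue, which gives nearly the same difference, 0.96, with a limma adjusted p of 0.158 over all probe sets. The probe sets disagreed on the order of the 4NQO-treated tongues, since tongue 2 was highest in the first and lowest in the second. Without 4NQO tongue 2 and control tongue 3 the difference of the main probe set was 0.57.

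Ccne2, cyclin E2, had a single probe set, which lay under the array median on all 6 arrays. It had 2.84, 2.80 and 2.41 in 4NQO-treated tongue and 2.40, 1.96 and 1.89 in control tongue. The groups were apart by 0.0051 only, between 4NQO-treated tongue 3 and control tongue 1. The log2 difference was 0.60 (95% interval 0.20 to 1.00, limma adjusted p = 0.280). Whether so low a signal exceeds background is not known here, and no linear fold is given.

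Cdk2, the kinase that cyclin E activates, had the smallest difference of the 10 genes. Its signals were 6.86, 7.16 and 6.72 in 4NQO-treated tongue and 6.61, 6.67 and 6.82 in control tongue. 4NQO-treated tongue 3 lay below control tongue 3, and the difference of 0.22 had a 95% interval from -0.17 to 0.61 (limma adjusted p = 0.676). The interval holds 0, and its upper end is about the size of the difference of Ccnd1. The second probe set of Cdk2 was at the dim end of the arrays, with means of 1.81 in 4NQO-treated tongue and 1.93 in control tongue.

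E2f1 encodes the founding factor of the E2F family. It had signals of 5.98, 6.05 and 5.80 in 4NQO-treated tongue, against 5.55, 5.23 and 5.43 in control tongue. The groups were 0.25 apart, and the mean difference was 0.54 (95% interval 0.16 to 0.91), or 1.45-fold (limma adjusted p = 0.299). Its other probe sets were less uniform: 1431875_a_at gave 0.42 and 1447840_x_at gave -0.05, and both overlapped between the groups. With the mean of all 3 probe sets the difference of E2f1 was 0.30.

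Rbl1 encodes p107, a pocket protein that is made mainly in cycling cells and that binds the repressor E2Fs. It had the largest difference of the 10 genes, with signals of 6.96, 7.19 and 6.56 in 4NQO-treated tongue against 5.71, 5.97 and 6.08 in control tongue. The groups were 0.48 apart, the widest gap among the 10 genes. The mean difference was 0.98 (95% interval 0.51 to 1.46), or 1.98-fold (limma adjusted p = 0.141). The other 3 probe sets of Rbl1 lay under the array median on all arrays and gave 0.30, -0.13 and -0.37. The first of these, 1425166_at, was higher without overlap, and the last, 1454293_at, was lower without overlap. The mean over all 4 probe sets gave a difference of 0.20.

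Rb1, the retinoblastoma protein, had 6.00, 6.59 and 5.79 in 4NQO-treated tongue and 5.62, 5.80 and 5.79 in control tongue. 4NQO-treated tongue 3 lay inside the control range and tongue 2 well above it. The difference was 0.39 (95% interval -0.13 to 0.91, limma adjusted p = 0.586), and it was 0.16 without 4NQO tongue 2. Rbl2 (p130), the pocket protein of resting cells, averaged 7.50 ± 0.16 in 4NQO-treated tongue and 7.62 ± 0.09 in control tongue (SD, n = 3 each), with overlapping groups and a log2 difference of -0.12. The 3 pocket proteins thus had values of 0.98 for Rbl1, 0.39 for Rb1 and -0.12 for Rbl2, and differences between them were not tested.

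E2F motifs were searched in the same 250-base windows, as TTTCGCGC, TTTGGCGC, TTTCCCGC or TTTGCCGC on either strand. At least 1 of them was found in 1.86% of the 32851 windows, and in those of Rbl1 and Cdk2 among the 7 genes. In Rbl1 the motif TTTCGCGC starts 18 bases before the gene start (chr2:157204535-157204784, minus strand). In Cdk2 the letters GCGGGAAA, the reverse complement of TTTCCCGC, start 140 bases before (chr10:128705052-128705301, minus strand). Both windows are shown because each holds 1 motif of the set, and they belong to the genes with the largest and the smallest difference. Capitals mark the motif.
Rbl1: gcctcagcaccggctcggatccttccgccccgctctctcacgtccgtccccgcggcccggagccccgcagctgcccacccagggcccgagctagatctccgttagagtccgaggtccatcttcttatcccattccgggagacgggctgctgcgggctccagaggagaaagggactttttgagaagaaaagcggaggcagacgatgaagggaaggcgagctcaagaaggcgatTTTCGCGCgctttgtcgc
Cdk2: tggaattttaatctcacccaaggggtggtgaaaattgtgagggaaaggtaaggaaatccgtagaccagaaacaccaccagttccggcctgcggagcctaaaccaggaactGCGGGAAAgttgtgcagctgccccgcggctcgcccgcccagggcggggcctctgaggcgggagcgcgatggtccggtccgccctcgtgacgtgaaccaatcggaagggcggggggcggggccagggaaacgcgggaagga
As the table places them, the windows of Ccnd3, Cdk4, Cdk6, Ccne1 and E2f1 held none of these letters, which says nothing of sites elsewhere in those genes.

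Of the 26 probe sets annotated to the 10 genes, 10 were main ones. Among the 16 others, 8 lay above the array median on all 6 arrays. Of these 8, 7 had a positive difference and 5 had groups that did not overlap with 4NQO higher. Among the main probe sets of all genes, 8679 of 18193 had a positive difference and 9.59% had groups that did not overlap with 4NQO higher. These shares were not counted among all other bright probe sets. The 8 dimmer ones gave 3 positive and 5 negative differences. Of these dimmer ones, 1425166_at of Rbl1 was higher without overlap and 1454293_at of Rbl1 was lower without overlap.

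**Figure D2:**
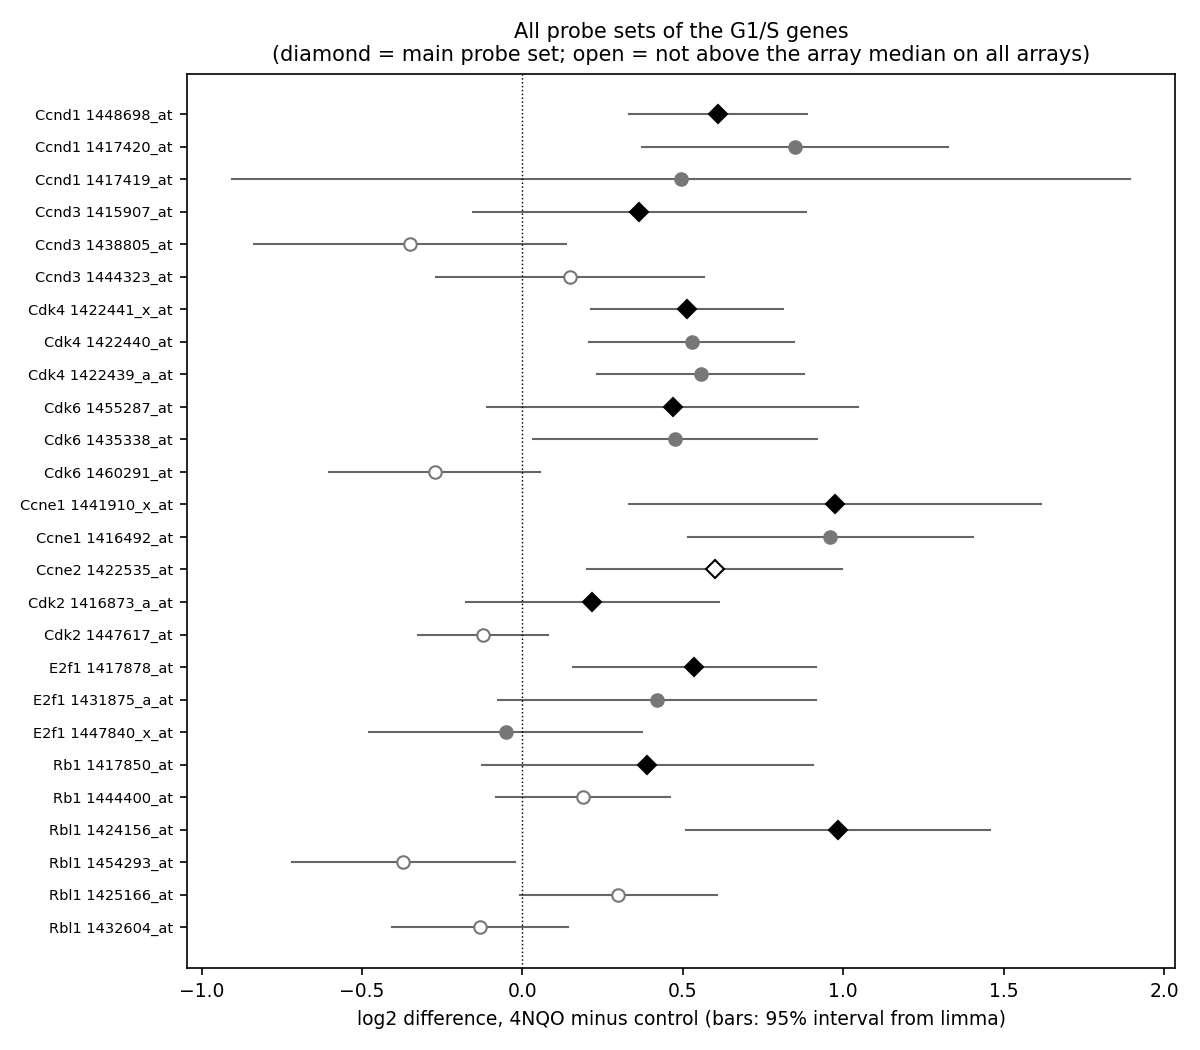
Log2 difference, 4NQO minus control, of all 26 probe sets of the 10 genes (x axis; y axis, gene and probe set), with bars for the 95% interval from limma over all probe sets. Diamonds are main probe sets, circles the others, and open symbols were not above the array median on all 6 arrays. The bright probe sets of Cdk4 and Ccne1 give like values, 0.51 to 0.56 and 0.96 to 0.98, while the open symbols scatter on both sides of 0.

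The 4NQO-treated tongues were not alike in these genes. By the main probe sets, 4NQO-treated tongue 2 had the highest signal of its group in 8 of the 10 genes, tongue 1 in Ccne2 and tongue 3 in Ccnd3. How often tongue 2 was highest over all genes was not counted. For Ccnd1, E2f1 and Cdk4, tongues 1 and 2 lay close to each other by these probe sets, whereas for Ccne1, Cdk6 and Rb1 tongue 2 stood clear of the others. In the other bright probe sets of Ccnd1, Cdk4, E2f1 and Ccne1, a different 4NQO-treated tongue was highest. The other bright probe set of Cdk6 again had tongue 2 highest. 4NQO-treated tongue 2 also had the largest Gapdh 3′ minus 5′ difference of its group, whereas that of beta-actin was larger in 4NQO-treated tongue 1. Without 4NQO tongue 2 and control tongue 3, the differences were 0.55 for Ccnd1, 0.57 for Cdk4, 0.92 for Rbl1, 0.50 for E2f1 and 0.44 for Ccne2. They were 0.49 for Ccnd3, 0.28 for Cdk6, 0.18 for Rb1 and 0.15 for Cdk2.

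Genes with a profile like that of Ccnd1, the gene with the smallest p, were sought by the root mean square difference between each gene's deviations from its own mean over the 6 arrays. The nearest were Gstp1, a glutathione transferase (0.055 log2 units), Cep164, a protein of the centriole (0.055), Ddx39a, an RNA helicase (0.071), Cbr1, a carbonyl reductase (0.074), and 1700066M21Rik (0.079). Their differences ran from 0.51 for 1700066M21Rik to 0.69 for Cbr1, and none passed limma's test over all genes.

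Other genes of the G1/S pathway were more mixed. Of 32 listed genes, all measured, none passed limma's test over all genes. At the unadjusted threshold of 0.05, 11 were higher and 1, Rbx1, was lower, where 6.68% of all genes were higher and 3.74% lower. The median log2 difference was 0.20, against -0.01 over all genes. Cks1b, a small CDK-binding protein that helps SKP2 degrade p27, had signals of 9.47, 9.40 and 8.96 in 4NQO-treated tongue, against 7.52, 7.74 and 8.27 in control tongue. Its difference of 1.43 (standard error 0.23, limma adjusted p = 0.0703) was larger than that of any of the 10 genes above. Ccna2, cyclin A2, which takes over CDK2 in S phase, had a difference of 1.14, and Fbxo5, an inhibitor of the anaphase-promoting complex, one of 0.81.

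Within the E2F family, the factors differed in size and sign. E2f7, a repressor E2F that is itself an E2F target, had signals of 5.87 to 6.29 in 4NQO-treated tongue, against 4.48 to 5.03 in control tongue. It had a difference of 1.19 (standard error 0.21, limma adjusted p = 0.0886), and its signal lay below the array median in control tongue 1. E2f2, an activator like E2f1, gave 0.63, again without overlap between the groups. Tfdp1, the dimer partner of E2F factors, gave 0.60 without overlap. E2f3 gave 0.18, E2f4 -0.04, E2f6 -0.33 and E2f8 0.06, all with overlapping groups. E2f5 gave 0.63, from a signal of 8.47 in 4NQO-treated tongue 2 against 6.53 to 6.57 on the other 5 arrays. None of the family passed limma's test over all genes.

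Of the 7 CDK inhibitors, which oppose these kinases, 6 had a positive difference and 1 a negative one, with a median of 0.25. Over all 18193 genes, 8679 had a positive difference. None of the 7 inhibitors passed limma's test over all genes. Cdkn2b (p15), an inhibitor of CDK4 and CDK6, had 6.63, 6.36 and 6.25 in 4NQO-treated tongue and 5.51, 5.14 and 5.82 in control tongue, a difference of 0.92 (limma adjusted p = 0.182). Cdkn1c (p57), an inhibitor linked to cell cycle exit, averaged 9.22 ± 0.37 in 4NQO-treated tongue and 9.85 ± 0.12 in control tongue (SD, n = 3 each), a difference of -0.63 (limma adjusted p = 0.307). Groups did not overlap for either gene. Cdkn2d (p19) gave 0.29 without overlap, and Cdkn2a, under the array median on all arrays, gave 0.25 with overlapping groups. Cdkn1a (p21), Cdkn1b (p27) and Cdkn2c (p18) gave 0.22, 0.14 and 0.25 and overlapped too. At the unadjusted threshold of 0.05 there was 1 of 7 on each side, Cdkn2b and Cdkn1c, where 6.68% of all genes were higher and 3.74% lower.

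E2F target genes of S phase, a list that leaves out the 10 genes, were measured for 28 of 30 listed. Of these, 4 rose at an adjusted p under 0.05 in limma, none fell and 24 did not pass. Over all genes, 0.126% rose and 0.0055% fell at that threshold. The 4 were Mcm5 (log2 difference 1.63) and Mcm3 (1.23), which belong to the helicase that unwinds DNA for replication, Rrm2 (1.98), of ribonucleotide reductase, and Tk1 (1.18), thymidine kinase. Over the list, 25 genes had groups that did not overlap with 4NQO higher, where 9.59% of all genes did, and the median log2 difference was 0.79. Mcm5 had 8.80, 8.62 and 8.64 in 4NQO-treated tongue, against 7.20, 6.89 and 7.09 in control tongue. Tyms, Ung and Orc1 were the 3 whose groups overlapped, with differences of 0.10, 0.14 and -0.01. Tyms and Orc1 lay under the array median on all arrays, as did Cdc6, which was higher without overlap. The number of E2F targets that rose was 4 without 4NQO tongue 3, 2 without control tongue 3, 1 without control tongue 1, and 0 without any 1 of 4NQO tongue 1, 4NQO tongue 2 or control tongue 2. It was also 0 with the replicate number as a block.

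**Figure D3:**
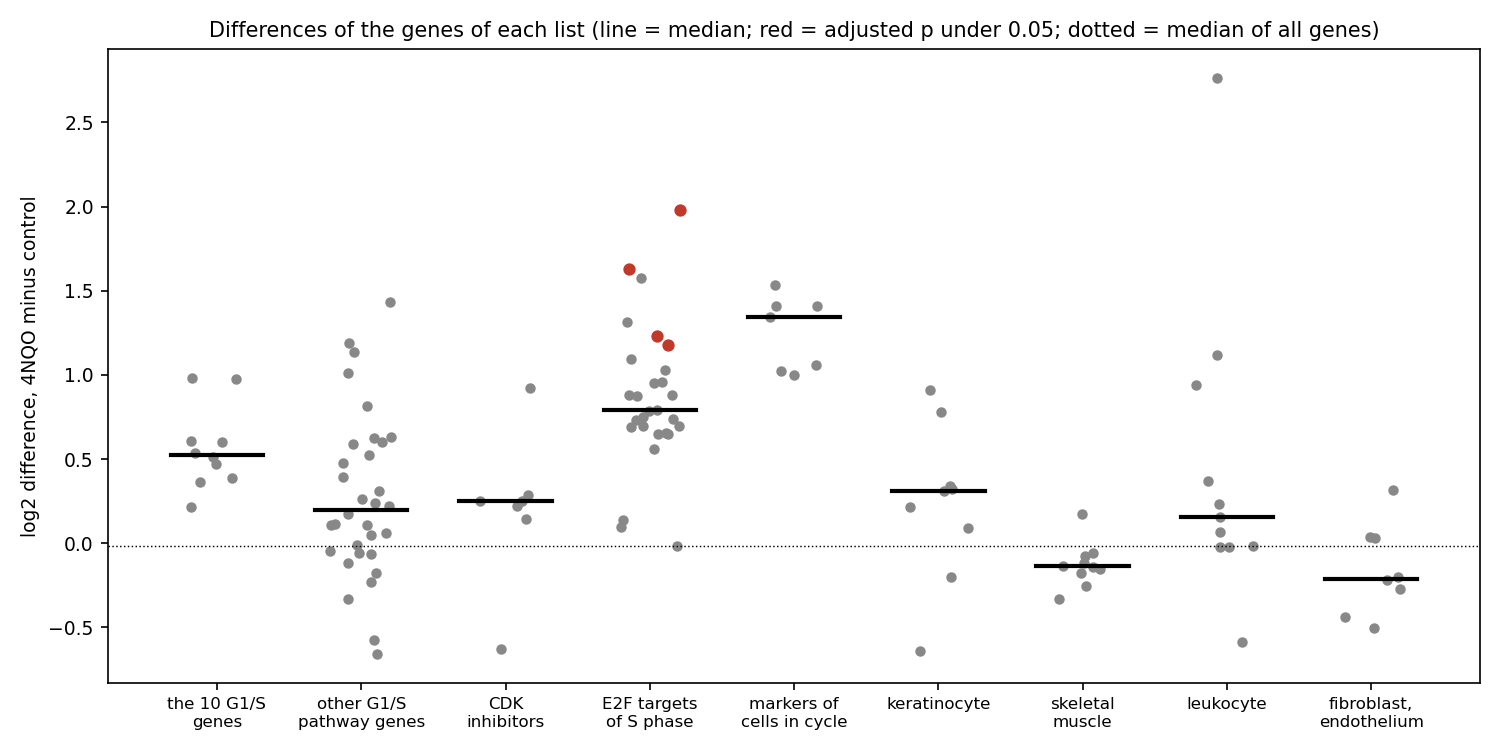
Log2 difference, 4NQO minus control (y axis), of each gene of 9 lists (x axis), with 1 point per gene, a line for the list's median, red for an adjusted p under 0.05 in limma and a dotted line for the median of all genes. The 10 G1/S genes lie between 0.22 and 0.98 with a median of 0.52, below the medians of the E2F targets (0.79) and of the markers of cells in cycle (1.34).

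Markers of other cells in the tongue were read beside these results. All 7 measured markers of cells in cycle were higher without overlap, where 9.59% of all genes were. Their summed linear signals were 1780 to 2611 in 4NQO-treated tongue and 695 to 1288 in control tongue. None of these 7 markers passed limma's test over all genes, and Aurkb and Bub1 were not above the array median on all arrays. Among them, Mki67 had 9.27, 9.37 and 8.82 in 4NQO-treated tongue, against 7.66, 8.27 and 8.47 in control tongue. Keratinocyte markers summed to 69313 to 76211 in 4NQO-treated tongue and 63499 to 66339 in control tongue, and the sums did not overlap. The per-array medians of the same markers did, at -0.02 to 0.50 relative to the control mean in 4NQO-treated tongue and -0.01 to 0.08 in control tongue. Of these 9 markers, 3 were higher without overlap (Sfn, Krt16 and Krt6a), where 9.59% of all genes were, and Krt15 and Krt4 had negative differences, -0.64 and -0.20, with overlapping groups. Sums of muscle markers overlapped, at 69889 to 77028 in 4NQO-treated tongue and 70901 to 86608 in control tongue. Of the 10 muscle markers, 9 had a negative difference, as did 9514 of all 18193 genes, and their median was -0.14. Myh4 (-0.17) was lower without overlap, where 7.18% of all genes were. Muscle signals also varied between arrays: Myh2 had 5.01 in 4NQO tongue 2 and 5.43 in control tongue 3, against 8.49 to 9.36 on the other arrays. Fibroblast and endothelial markers summed to 11247 to 12800 in 4NQO-treated tongue and 12871 to 15416 in control tongue, and these sums did not overlap. Their per-array medians did, at -0.30 to -0.0035 in 4NQO-treated tongue and -0.33 to 0.19 in control tongue. Of these 8 markers, 2 were lower without overlap (Col1a2, -0.50, and Dcn, -0.20), where 7.18% of all genes were. The sums of leukocyte markers overlapped, at 2922 to 7781 in 4NQO-treated tongue and 2694 to 5475 in control tongue. Single leukocyte markers differed more: S100a8, a neutrophil protein that keratinocytes can also make, had 8.04, 9.27 and 11.24 in 4NQO-treated tongue, against 7.01, 5.79 and 7.45 in control tongue, a log2 difference of 2.76 (limma adjusted p = 0.261). Cd79a of B cells gave -0.59 without overlap, and Ptprc and Cd3g gave 1.12 and 0.94 with overlapping groups. None of the leukocyte markers passed limma's test over all genes, and Cd3g, Cd79a, Cd4 and Itgam were not above the array median on all arrays. The part of a shift in cell types in the values of the 10 genes was not tested.

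**Figure D4:**
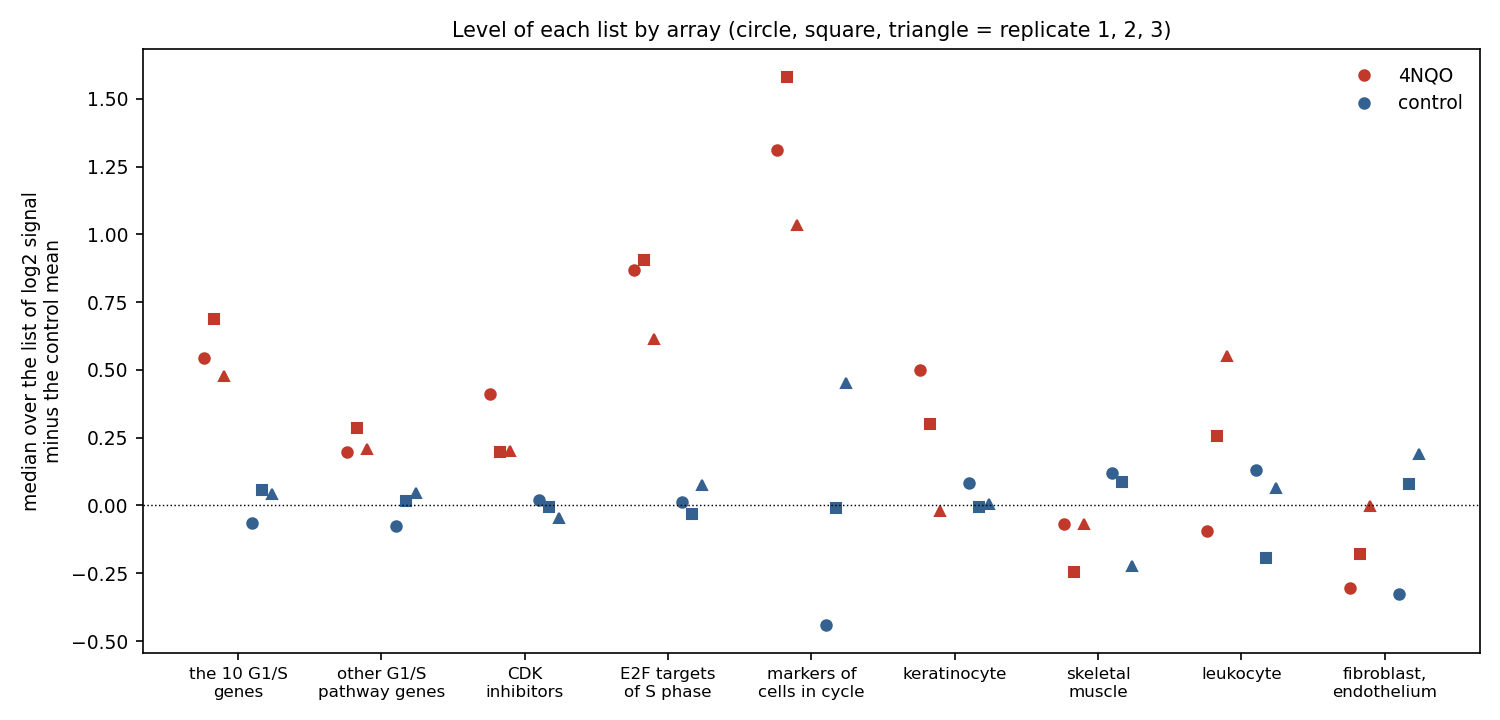
Median over each list of the log2 signal minus the control mean of each gene (y axis), for 9 lists (x axis), with 1 symbol per array, 4NQO-treated tongues to the left of control tongues. For the 10 G1/S genes the 4NQO-treated tongues lie between 0.48 and 0.69 and the control tongues between -0.06 and 0.06, and the lists of keratinocyte, muscle, leukocyte and fibroblast and endothelial markers overlap between the groups.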

How the data were processed

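RNA from 3 tongues of 4NQO-treated mice and from 3 control tongues was hybridized to Affymetrix mouse arrays. The authors normalized the arrays in R with Bioconductor packages, by a method not given in the sources used here. Each deposited value is the log2 signal of 1 probe set on 1 array. Probe sets were named through the platform annotation, in which 34945 of 45101 probe sets had 1 gene, 932 had several and 9160 had none, and 64 were array controls. Entrez IDs were matched to the RefSeq genes of GRCm38.p6, which held 18032 of the 18193 genes and changed 0 symbols.

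Genes were tested with limma 3.58.1 in R 4.3.3 (lmFit and eBayes with an intensity trend, no filter on dim genes), with Benjamini-Hochberg adjustment over all genes and a threshold of 0.05. Intervals are 95% intervals from the same fit. The number of arrays limits the precision. The test was checked on simulated data. SAM, written after its published description, was run on 35877 named probe sets with all 20 label permutations. Counts of genes by SAM are of main probe sets only. Alternatives covered the scaling (quantiles, or centred arrays), a filter on dim genes, the probe set that stands for a gene, the variance model, a block for the replicate number, each array left out in turn, SAM, and the threshold. Centring over all probe sets and leaving out both arrays of highest Gapdh difference were chosen after seeing the data.

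The 10 genes and the gene lists were chosen with earlier results of these data known. Named are the 10 genes, up to 4 genes of each list with the smallest p, and the 5 genes most like the leading one. Other genes, such as Ccnd2, Rbl2, Myc, Tfdp1, further E2F factors, Cdkn1a, Cdkn1b, Cdkn2c, Tyms, Ung, Orc1, Krt15, Krt4, Myh2 and Mki67, were chosen after their values were seen. Motifs were counted in the 250 bases before each RefSeq gene start.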

Additional observations from a re-analysis of the deposited data

How the results depend on the processing

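Under 16 refits of limma, each of the 10 genes had a positive difference and an adjusted p above 0.05 in all 159 fits that could be made (Ccne2 is left out by the filter on dim genes). The difference itself cannot change in refits that alter only the genes or probe sets tested, the variance model or the block. For the 6 genes with groups that did not overlap, leaving out arrays cannot change its sign. The number of the 10 genes that were higher was 6 at an unadjusted p under 0.05. For the other G1/S pathway genes, 3 were higher at an adjusted p under 0.10, 11 were higher and 1 was lower at an unadjusted p under 0.05, and 0 to 1 were higher when 1 array was left out. The 4 E2F targets that rose became 2 with the mean of all probe sets of a gene and 2 with all probe sets tested, 7 with robust variance, 8 with arrays centred over all probe sets, 0 without both arrays of highest Gapdh difference, 7 by SAM, 10 at an adjusted p under 0.10, 25 at an unadjusted p under 0.05, and 0 to 4 when 1 array was left out. Over all genes, 23 were higher and 1 lower. These counts were 36 and 3 without dim genes, 15 higher with the mean of all probe sets, 2 lower with no intensity trend, 43 and 4 with robust variance, 63 and 2 with arrays centred over all probe sets, 4 and 0 without both arrays of highest Gapdh difference, 45 and 0 by SAM, 103 and 8 at an adjusted p under 0.10, 1216 and 681 at an unadjusted p under 0.05, and 0 to 25 higher and 0 to 2 lower when 1 array was left out. The cause of these moves was not tested. Mb, a muscle marker, had a difference of 0.035, of opposite sign, with the mean of all its probe sets.

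With the replicate number as a block, 2 genes were higher, 0 were lower, and 0 E2F targets were higher. Same-numbered tongues gave correlations of deviations of 0.29, -0.51 and 0.05. The largest correlation was between 4NQO-treated tongue 2 and control tongue 3 (0.48), and 4NQO-treated tongue 1 correlated best with control tongue 2 (0.31). The numbers were therefore not taken to pair the tongues.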
